A study of Mus musculus with 2 samples.

Results

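Il1b, Tnf, Ccl2, Ccl3, Ccl4, Cxcl1, Cxcl2 and Cxcl10 encode inflammatory cytokines and chemokines. They were taken by symbol from both count tables, where all 8 were found among 41459 genes, and each had at least 1 count in each library. Their transcripts were followed across myeloid-like, stromal-like, Leydig-like, Sertoli-like and germ-like cells, classes named from marker genes. The data are droplet-based single-cell RNA sequencing of whole testes from male mice aged 55 days. The RAD21L KO library came from a Rad21l-/- mouse and the WT library from a Rad21l+/+ mouse, with 1 library per genotype. RAD21L is a cohesin subunit made in meiotic cells, and the allele's construction and the strain are not given in the sources used here. Since there was 1 library per genotype and cells of 1 library are not replicates, no test was run. All intervals are 95% intervals that cover counting error only, so they say nothing of the spread between mice. Those of CPM and of ratios also say nothing of the spread between cells.

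IL-1 beta and TNF are secreted by activated macrophages and act on neighbouring cells through the IL-1 and TNF receptors. CCL2 attracts monocytes, CCL3 and CCL4 attract monocytes and T cells, CXCL1 and CXCL2 attract neutrophils through CXCR2, and CXCL10 is an interferon-inducible ligand of CXCR3. NF-kB is a shared activator of many of these genes. The testis holds interstitial macrophages beside the testosterone-producing Leydig cells, and Sertoli cells form the blood-testis barrier around the germ cells. The genes are clustered in the mouse genome, with Cxcl1 and Cxcl2 next to each other on chromosome 5, Ccl3 and Ccl4 next to each other on chromosome 11, and Ccl2 elsewhere on chromosome 11.

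Promoters of 6 of the 8 genes were found in RefSeq (build GRCm38.p6, while the counts were made on GRCm39), as 250 bases before and 50 bases after each gene's start. Ccl2 and Ccl4 had no entry there. Those of Cxcl1, Cxcl2 and Cxcl10 are shown because the neighbours Cxcl1 and Cxcl2 share a motif, while different classes of cells held most of their UMIs, and Cxcl10, an interferon-inducible gene, holds another motif. Each runs 5′ to 3′ on the gene's strand.
Cxcl1 (chr5:90890995-90891294, plus strand): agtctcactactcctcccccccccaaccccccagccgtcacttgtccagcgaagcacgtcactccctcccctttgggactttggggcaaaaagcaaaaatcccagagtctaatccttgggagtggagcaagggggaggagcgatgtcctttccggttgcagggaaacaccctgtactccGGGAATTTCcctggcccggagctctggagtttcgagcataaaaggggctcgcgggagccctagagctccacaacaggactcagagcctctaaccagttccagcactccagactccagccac
Cxcl2 (chr5:90903649-90903948, plus strand): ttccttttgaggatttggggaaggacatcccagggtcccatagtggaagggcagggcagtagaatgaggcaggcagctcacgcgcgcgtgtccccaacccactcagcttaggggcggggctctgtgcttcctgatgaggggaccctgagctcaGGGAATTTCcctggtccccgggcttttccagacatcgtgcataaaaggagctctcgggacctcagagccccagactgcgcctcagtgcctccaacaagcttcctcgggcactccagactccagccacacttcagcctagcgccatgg
Cxcl10 (chr5:92348840-92349139, minus strand): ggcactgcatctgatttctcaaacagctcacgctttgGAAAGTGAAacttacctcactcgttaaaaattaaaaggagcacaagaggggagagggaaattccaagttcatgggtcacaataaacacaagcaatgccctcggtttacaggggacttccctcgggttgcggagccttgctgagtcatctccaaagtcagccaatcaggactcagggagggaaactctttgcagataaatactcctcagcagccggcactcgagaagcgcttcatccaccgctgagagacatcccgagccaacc
Capitals mark every match, on either strand, to GGGAATTTC, an NF-kB-type motif, or to GAAANNGAA, an interferon-response-type motif; no matches overlap. Both Cxcl1 and Cxcl2 hold GGGAATTTC, which begins at position -71 in Cxcl1 and -97 in Cxcl2, counted from the gene's start. It was found in 85 of 32851 promoters of the same length (0.259%) and in none of the other 4 promoters of these genes. Looser NF-kB forms are not marked, so promoters without this match, such as that of Cxcl10, may still hold one. Cxcl10 holds GAAANNGAA at position -213, and so does the Ccl3 promoter, not shown, on its other strand at -39. That motif was in 8.56% of all promoters. These are matches of letters, and no data on binding were used.

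The RAD21L KO library held 28001992 UMIs in 7118 barcodes, and the WT library 33096309 in 5415. A UMI is a random tag that counts 1 RNA molecule. Filters kept 6255 KO and 5400 WT cells, and 14 barcodes occurred in both libraries. Rad21l itself was counted at 111 UMIs in KO and 82 in WT over all barcodes. In early prophase-like cells it had 22.7 CPM (UMIs per 1000000 UMIs of the same cells) in KO and 84.0 in WT. Whether the counted part of the transcript lies in the deleted part is not known here, so this does not check the genotype labels. Myeloid-like cells numbered 441 in KO and 7 in WT, stromal-like 682 and 6, Leydig-like 719 and 7, Sertoli-like 1139 and 37, and germ-like 1479 and 4771. KO germ-like cells were spermatogonia-like (965) and early prophase-like (514), with no spermatid-like cell among them. All 16 myeloid markers were found in KO myeloid-like cells and made up 2.90% of their UMIs. Among the neutrophil markers S100a9, Retnlg, Mmp9, Ngp and Camp were at 0 in them, and S100a8 had 1 UMI. Lcn2 had 217 of the list's 256 UMIs there, and the rest were of Csf3r. In Leydig-like cells of both libraries the neutrophil markers reached 0.863% of UMIs in KO and 0.905% in WT, and nearly all of it was Lcn2, with S100a8 and S100a9 at 0.

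Within the KO library, 6 of the 8 genes were found mainly in myeloid-like cells and the other 2 were not. For Il1b, Tnf, Ccl2, Ccl3, Ccl4 and Cxcl2, between 87.5% (Ccl2) and 95.9% (Il1b) of the UMIs in kept cells lay in the myeloid-like class, which made up 7.05% of the cells. Cxcl1 had 2.06% of its UMIs there, and Cxcl10 10.5%. Over all other kept KO cells, myeloid-like cells were at least 2-fold higher for 7 of the 8 genes, the exception being Cxcl1. The same held for 18.7% of the 17102 genes with at least 20 UMIs. Leydig-like cells were at least 2-fold higher for Cxcl1 and Cxcl10, beside 10.4% of all genes, and stromal-like cells for Cxcl10, beside 15.8%. Sertoli-like and germ-like cells were at least 2-fold higher for 0 of the 8, beside 17.8% and 28.6% of all genes.

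**Figure D1:**
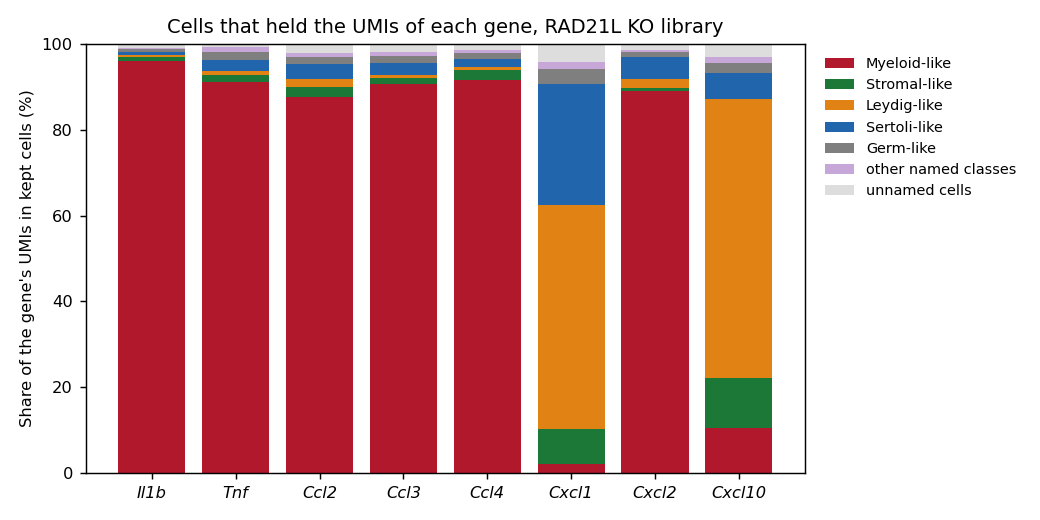
Stacked bars give the share (%) of each gene's UMIs in kept RAD21L KO cells that fell in each class of cells; each bar sums to 100%. Myeloid-like cells held 87.5% to 95.9% of the UMIs of 6 genes, while Leydig-like cells held 52.4% of the Cxcl1 UMIs and 65.2% of the Cxcl10 UMIs.

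Of the cytokines, Il1b had 613 CPM in KO myeloid-like cells (interval 568 to 661), 4.87 in stromal-like, 0.584 in Leydig-like, 0.582 in Sertoli-like and 0.750 in germ-like cells. It was unevenly spread over the myeloid-like cells. Its 683 UMIs came from 87 of the 441 cells (19.7%), and 17 cells held at least 50% of them. Tnf had 402 CPM in myeloid-like cells (366 to 441), 4.87 in stromal-like, 0.974 in Leydig-like, 1.51 in Sertoli-like and 1.12 in germ-like cells. Its 448 UMIs were spread wider, over 198 cells (44.9%), with 43 cells holding at least 50% of them. So Tnf was found in more myeloid-like cells than Il1b although it had fewer UMIs.

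Of the chemokines in the myeloid-like class, Cxcl2 had 910 CPM (855 to 968), Ccl4 883 (828 to 940), Ccl2 807 (755 to 862) and Ccl3 592 (547 to 639). The intervals of Cxcl2, Ccl4 and Ccl2 overlap, so their order is not resolved at this depth, and the interval of Ccl3 lay below all of theirs. CPM were not scaled by transcript length. Ccl2 was found in 214 cells (48.5%), Ccl3 in 175 (39.7%), Cxcl2 in 155 (35.1%) and Ccl4 in 131 (29.7%). Ccl4, with slightly more UMIs than Ccl2, was thus found in fewer cells, and up to 48 of its UMIs were in 1 cell. Outside the myeloid-like class all 4 were low, with 4.09 CPM of Ccl2 in Leydig-like, 3.96 in Sertoli-like and 2.37 in germ-like cells. Among classes of at least 50 cells, the highest such values were 16.7 CPM of Ccl2 and 16.0 CPM of Ccl4 in stromal-like cells, and they rested on few cells, since 1 cell held 16 of the 24 Ccl2 UMIs and 1 cell 15 of the 23 Ccl4 UMIs. The 23 lymphocyte-like cells had 6 UMIs of Ccl4, 5 of Ccl3, 4 of Cxcl2 and 1 of Ccl2.

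Cxcl1 had a different order. It had 496 CPM in Leydig-like cells (476 to 515), 273 in stromal-like (246 to 301), 177 in endothelial-like (132 to 231), 160 in Sertoli-like (152 to 169), 99.5 in myoid-like (68.0 to 140), 89.8 in myeloid-like (73.1 to 109) and 20.4 in germ-like cells (17.4 to 23.7). The endothelial-like interval overlaps those of Sertoli-like and myoid-like cells, and the myoid-like interval also that of myeloid-like cells, while Leydig-like, stromal-like and germ-like cells stand apart from their neighbours. Leydig-like cells were 4.62-fold (4.36 to 4.89) over all other kept KO cells, and myeloid-like cells 0.483-fold (0.392 to 0.589). Cxcl1 was found in 479 of 719 Leydig-like cells (66.6%), 173 of 682 stromal-like cells (25.4%) and 444 of 1139 Sertoli-like cells (39.0%). Since Leydig-like and Sertoli-like cells were deeper, with medians of 7224 and 6918 UMIs against 2072.5 in stromal-like cells, each cell was also thinned to 1000 UMIs. The shares were then 29.5% in Leydig-like, 18.2% in stromal-like, 11.2% in Sertoli-like, 5.37% in myeloid-like and 1.50% in germ-like cells. Stromal-like cells thus ranked above Sertoli-like cells once depth was equal, as they did by CPM. Of the Sertoli-like cells, the larger cluster (1063 cells) had 162 CPM and a cluster of 76 cells 135 CPM of Cxcl1, with overlapping intervals.

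Cxcl10 had 127 CPM in Leydig-like cells (117 to 137), 94.3 in myeloid-like (77.1 to 114), 80.0 in stromal-like (66.1 to 96.1), 6.87 in Sertoli-like (5.23 to 8.87) and 3.00 in germ-like cells (1.92 to 4.46). The Leydig-like interval lies above the other two, and those of myeloid-like and stromal-like cells overlap. Leydig-like cells were 7.86-fold (6.89 to 8.98) over all other kept KO cells, myeloid-like cells 2.70-fold (2.19 to 3.31) and stromal-like cells 2.29-fold (1.87 to 2.79). Within the Leydig-like class Cxcl10 was concentrated, with UMIs in 156 of 719 cells (21.7%) and at least 50% of its 650 UMIs in 29 cells. In the small Sertoli-like cluster of 76 cells Cxcl10 had 40.5 CPM (26.0 to 60.3), against 4.38 (3.05 to 6.09) in the larger one. The leading genes of that small cluster were led by Wfdc18 and Ccn1, and 11 of its cells held the 24 UMIs.

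Within the Leydig-like class, Cxcl1 was higher in the cells that had a Cxcl10 UMI. They had 939 CPM of Cxcl1 (885 to 995), against 360 (342 to 380) in those without, at median depths of 7716 and 7027 UMIs. With cells thinned to 3000 UMIs, 93 of 115 cells with Cxcl10 also had Cxcl1 (80.9%), against 283 of 563 without it (50.3%). Leydig markers made up 2.52% of UMIs in cells with Cxcl10 and 2.51% in those without, and myeloid markers 0.0118% and 0.00884%. Interferon targets, a list without Cxcl10, made up 0.0934% and 0.0486%. Immediate early genes made up 1.87% and 1.45%, and their part in the difference was not tested.

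**Figure D2:**
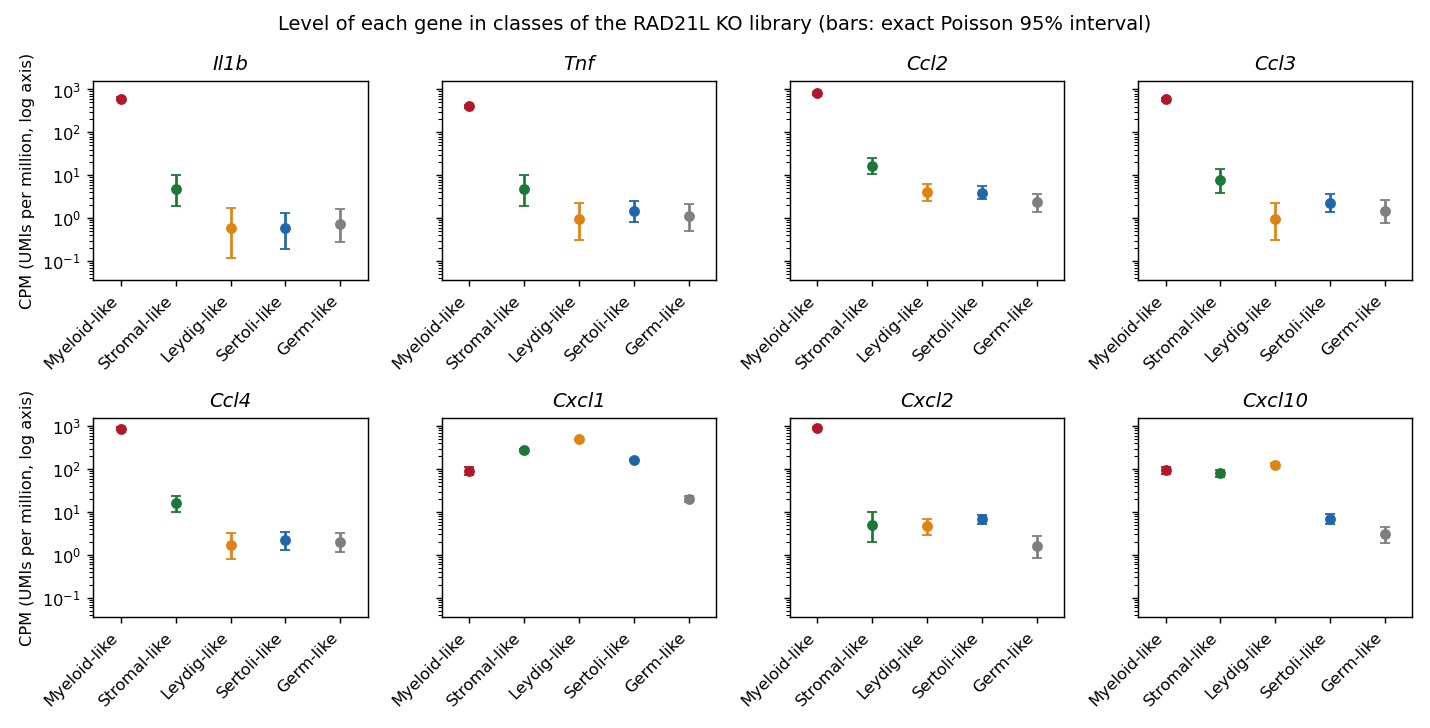
Each panel plots 1 gene's level in CPM (log axis) in 5 classes of the RAD21L KO library, with points at the class sum and bars at the exact Poisson 95% interval. The panels of Il1b, Tnf, Ccl2, Ccl3, Ccl4 and Cxcl2 peak in myeloid-like cells at 402 to 910 CPM, and those of Cxcl1 and Cxcl10 peak in Leydig-like cells at 496 and 127 CPM.

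In droplet data, RNA freed from broken cells gives UMIs in cells that do not make a transcript, and 1 source keeps its genes in the same ratio in all classes. Per 100 UMIs of the 16 myeloid markers, KO germ-like cells had between 0.476 (Il1b) and 1.15 (Ccl2) times the myeloid-like quotient for the 6 myeloid genes, and all 6 intervals held 1. In Leydig-like cells the 6 quotients ran between 0.290 (Il1b) and 1.56 (Cxcl2, 0.997 to 2.34), with only the interval of Il1b not holding 1. In Sertoli-like cells they were 0.107 (Il1b) to 0.839 (Cxcl2), with all intervals but that of Cxcl2 wholly below 1. None of these intervals lay wholly above 1, and the part of free RNA in these few UMIs was not tested. Myeloid markers had 256.5 CPM in KO Sertoli-like and 74.5 in KO germ-like cells, and their part in the quotients was not tested. Stromal-like cells had 4.54 times the quotient for Ccl2 (2.89 to 6.80) and 3.98 times for Ccl4 (2.51 to 6.01), where 1 cell held most UMIs. They also had 2.84 times the quotient for Ccl3 (1.41 to 5.11) and 2.66 times for Tnf (1.06 to 5.52), from 11 and 7 UMIs, while the intervals of Il1b and Cxcl2 held 1. For Cxcl1 the quotient was 1682 times the myeloid-like one in Leydig-like, 667 in stromal-like, 201 in Sertoli-like and 88.4 in germ-like cells, and for Cxcl10 it was 409, 186, 8.24 and 12.4. Set against Leydig markers instead, Cxcl1 in Sertoli-like cells was 15.9 times (14.8 to 16.9) and in stromal-like cells 13.2 times (11.8 to 14.7) the Leydig-like quotient. Cxcl10 was 21.9 times it (17.7 to 27.0) in myeloid-like, 15.1 times (12.3 to 18.5) in stromal-like, 2.67 times (2.01 to 3.49) in Sertoli-like and 1.61 times (1.02 to 2.42) in germ-like cells. In germ-like cells Cxcl1 was 2.79 times the quotient against Leydig markers and 1.26 to 1.76 times the Sertoli-like one against Sertoli markers, with at most 2 UMIs in a cell. Each of these quotients takes 1 source of free RNA alone, and the sources were not added together. Whether germ-like cells made any Cxcl1 was not tested.

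The KO myeloid-like cells fell in 2 clusters, and 6 of the 8 genes were at least 2-fold higher in one than in the other. One cluster of 116 cells was high in MHC class II genes, which present antigen, with 17277 CPM of Cd74 and 7059 of H2-Aa, against 658 and 251 in a cluster of 325 cells. That larger cluster was high in Mrc1, F13a1 and Cbr2, markers of resident macrophages, with 3729, 2442 and 1350 CPM, against 592, 22.1 and 26.5 in the smaller one. The 8 genes had been left out of the clustering. Il1b, Ccl3, Ccl4, Cxcl1, Cxcl2 and Cxcl10 were at least 2-fold higher in the MHC class II high cluster. The same held for 6.02% of the 7473 genes with at least 20 UMIs. The calls of Cxcl1 and Cxcl10 rest on few cells, since each had UMIs in 19 of the 116 cells. Il1b was found in 79 of them, Ccl4 in 82, Ccl3 in 71 and Cxcl2 in 66. The interval of the Cxcl1 ratio also began below 2-fold, at 1.86. None of the 8 was at least 2-fold lower, beside 15.6% of all genes.

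Il1b separated the clusters most, with 2916 CPM in the MHC class II high cluster and 25.9 in the low one, a ratio of 112 (74.3 to 179). Ccl4 followed, with 3477 and 221 CPM, a ratio of 15.7 (13.4 to 18.5). Smaller ratios were those of Cxcl10 (4.31, 2.89 to 6.46), Ccl3 (3.46, 2.96 to 4.04), Cxcl2 (3.32, 2.93 to 3.76) and Cxcl1 (2.84, with 1.86 as its lower bound). The neighbouring and closely related Ccl3 and Ccl4 thus differed in their ratio, with intervals that do not overlap. Tnf was shared, with 521 CPM in the high and 372 in the low cluster, a ratio of 1.40 (1.13 to 1.73). Ccl2 went the other way, with 574 CPM in the high and 867 in the low cluster, a ratio of 0.663 (0.546 to 0.799), under the 2-fold limit. Immediate early genes such as Fos and Jun, which cell dissociation can also induce, made up 2.37% of UMIs in the high and 2.49% in the low cluster, and neutrophil markers 0.0216% and 0.0233%. The part of either in the differences was not tested.

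**Figure D3:**
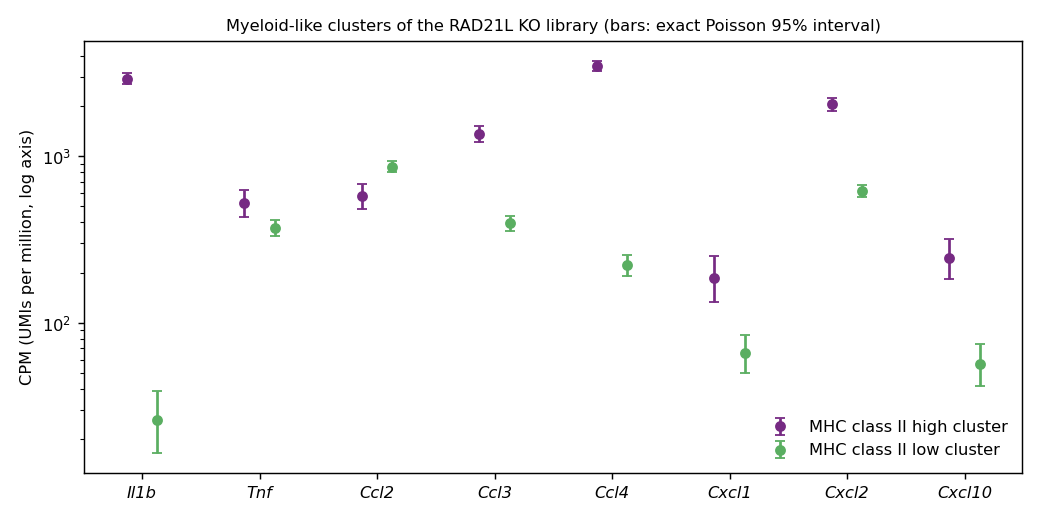
Levels in CPM (log axis) of the 8 genes in the MHC class II high cluster (116 cells, purple, left of each pair) and the MHC class II low cluster (325 cells, green) of RAD21L KO myeloid-like cells, with exact Poisson 95% intervals as bars. Il1b and Ccl4 are far apart, Tnf is close, and Ccl2 is lower in the MHC class II high cluster.

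Clustering the 441 cells again, without the 8 genes and the listed pathway genes, gave 4 groups. One of 111 cells, of which 109 were in the MHC class II high cluster, had 2945 CPM of Il1b and 3636 of Ccl4. The other 3, nearly all MHC class II low cells, had 8.87 to 46.1 CPM of Il1b and 102 to 295 of Ccl4. Those 3 were not alike in the other genes. Cxcl2 had 1118 CPM in a group of 110 cells led by Emp1, 372 in one of 109 cells led by Zhx3 and 66.5 in one of 111 cells led by Egfl7. Cxcl1 had 113, 23.0 and 26.6 CPM in the same groups, and Ccl2 914, 1060 and 550. The group led by Egfl7, lowest in Cxcl2 and Ccl2, was the shallowest, with a median of 1663 UMIs against 3197.5 and 2723, and several of its leading genes, such as Meioc, Sycp2 and Cyp17a1, are germ cell and Leydig genes. The part of depth and of these genes in the levels was not tested.

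No single cell had a UMI of all 8 genes. In the MHC class II high cluster 107 of 116 cells had at least 1 of the 8 genes, the commonest number was 3 genes (28.4% of cells), and 9 cells had 6. In the low cluster 82 of 325 cells had none (25.2%), and 1 cell had 6. No cell had 7 or 8. These counts were not thinned, at median depths of 1863 UMIs in the high and 2669 in the low cluster. At such depths a gene without a UMI in a cell may still be present in it. With cells thinned to 1000 UMIs, Il1b was found in 38 of the 54 cells with Cxcl2 in the high cluster (70.4%), against 28 of 54 without it (51.9%). Ccl4 was in 50 of the 61 cells with Ccl3 there (82.0%), against 20 of 47 without it (42.6%). Tnf was in 21 of the 66 cells with Il1b (31.8%), against 16 of 42 without it (38.1%). In the low cluster, 36 of 57 cells with Cxcl2 also had Ccl2 (63.2%), against 91 of 245 without it (37.1%). Also in the low cluster, 25 of 77 cells with Tnf had Ccl3 (32.5%), against 36 of 225 without it (16.0%). Ccl4 was in 8 of the same 77 cells (10.4%) and 23 of the 225 (10.2%), so its shares lay close together. These pairs were chosen after their values were seen, and the shares describe cells of 1 library.

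**Figure D4:**
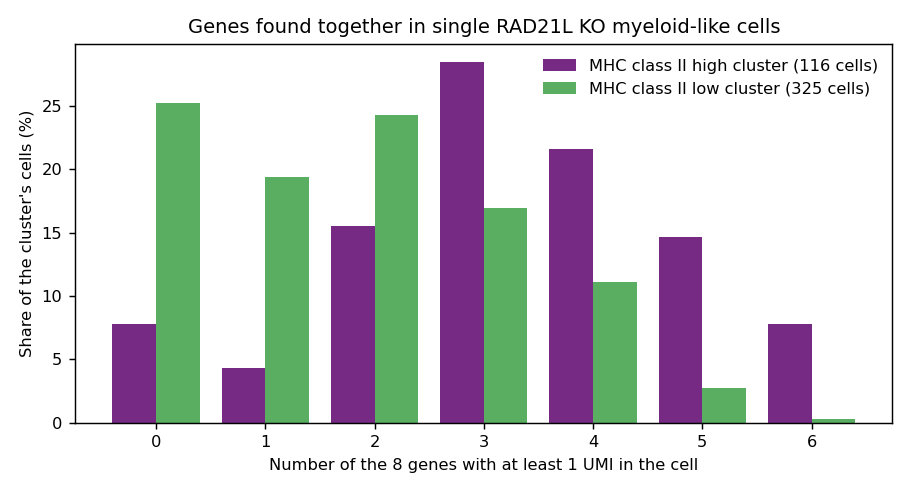
Share (%) of the cells of each RAD21L KO myeloid-like cluster by how many of the 8 genes had at least 1 UMI in the cell, with the MHC class II high cluster (116 cells) left of the MHC class II low cluster (325 cells). The high cluster peaks at 3 genes (28.4%), and 25.2% of the low cluster had none. Cells were not thinned, with median depths of 1863 UMIs in the high and 2669 in the low cluster.

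Over all barcodes, each of the 8 genes was at least 2-fold higher in the RAD21L KO library than in the WT library. That held for 43.3% of the 23001 genes with at least 20 UMIs, while 34.1% were at least 2-fold lower, and the median log2 ratio of all these genes was 0.50. Cxcl1 had 5070 UMIs (181 CPM) in KO and 41 (1.24 CPM) in WT, a ratio of 146 (108 to 204). Ccl2 had 1056 UMIs in KO and 7 in WT, a ratio of 178 (86.2 to 445). Il1b had 722 UMIs in KO and 100 in WT, with the lowest ratio of the 8, 8.53 (6.91 to 10.6), and Ccl4 had 1105 and 83, a ratio of 15.7 (12.6 to 19.9). The other ratios were 68.5 for Cxcl2 (44.1 to 113), 64.2 for Ccl3 (38.1 to 118), 53.8 for Cxcl10 and 31.3 for Tnf. The intervals of Ccl2, Cxcl1, Cxcl2 and Ccl3 all overlap, so their order is not resolved at this depth. In such sums more cells of a type and more RNA per cell cannot be told apart, and the classes that held these transcripts were themselves few in WT. Myeloid-like cells were 7.05% of kept cells in KO and 7 of 5400 in WT.

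**Figure D5:**
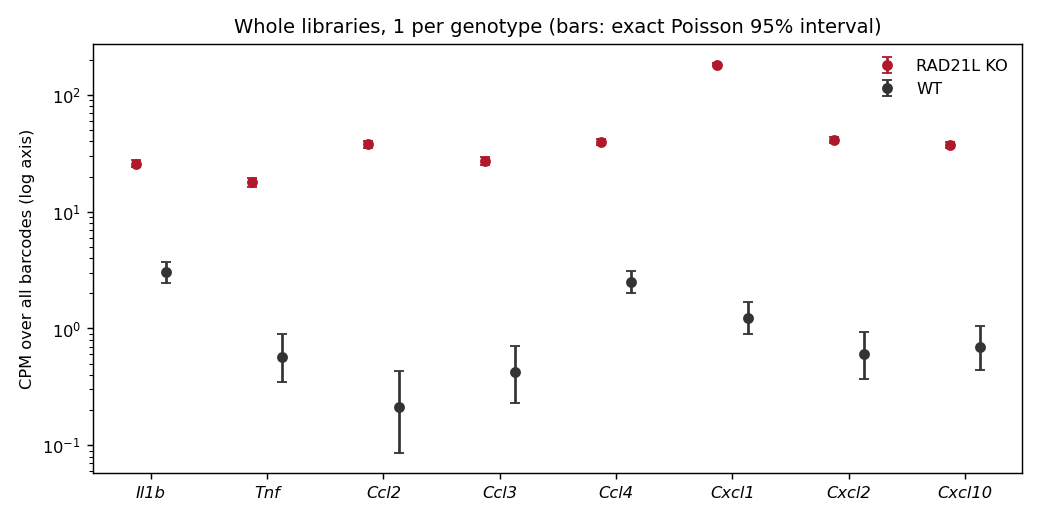
CPM over all barcodes (log axis) of the 8 genes in the RAD21L KO library (red, left of each pair) and the WT library (black), 1 library each, with exact Poisson 95% intervals as bars. The KO points lie between 18.0 and 181 CPM and the WT points between 0.212 and 3.02 CPM.

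The WT myeloid-like cells carried the same transcripts, although they were only 7. All 7 lay in the MHC class II high cluster, none in the low one, and each had between 2 and 5 of the 8 genes. Ccl4 had 61 UMIs in 6 of them, with 24, 12, 12, 7, 3 and 3 UMIs in the single cells. Cxcl2 had 19 UMIs in 5 cells, Tnf 17 in 4, Ccl3 13 in 4, Il1b 9 in 3, Ccl2 5 in 2 and Cxcl10 4 in 2. Cxcl1 had none, and a count of 0 in these cells allows up to 262 CPM. In KO cells of the same cluster Ccl4 and Il1b were the genes with most UMIs, and in these WT cells Ccl4 was too but Il1b was not. Elongating spermatid markers made up 2.39% of the UMIs of these 7 cells, and their part in the values was not tested. With under 50 WT cells no ratio was taken. Immediate early genes made up 2.47% of UMIs in KO and 2.25% in WT myeloid-like cells.

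Among the other WT somatic cells, Cxcl1 had 10 UMIs in 3 of 7 Leydig-like cells and 10 UMIs in 7 of 37 Sertoli-like cells. As CPM, Sertoli-like cells had 160 in KO (152 to 169) and 28.1 in WT (13.5 to 51.6). Leydig-like cells had 496 in KO (476 to 515) and 164 in WT (78.7 to 302). Pachytene and diplotene markers made up 0.0114% of the UMIs of Sertoli-like cells in KO and 0.179% in WT, and elongating spermatid markers 0.000396% and 1.25%. In Leydig-like cells pachytene and diplotene markers made up 0.00502% in KO and 0.120% in WT, and elongating spermatid markers 0.000175% and 0.640%. The part of these markers in the differences was not tested. Cxcl10 had 1 UMI in Leydig-like cells and 0 in Sertoli-like cells of WT. The 6 WT stromal-like cells had no UMI of any of the 8 genes. Immediate early genes made up 0.362% of UMIs in KO and 0.202% in WT Sertoli-like cells, 1.55% and 1.08% in Leydig-like cells, and 4.36% and 2.28% in stromal-like cells. Their part in the levels of the 8 genes was not tested.

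In the germ-like classes found in both libraries, only Cxcl1 of the 8 genes had a KO over WT interval wholly above 1. In spermatogonia-like cells Cxcl1 had 106 UMIs (19.0 CPM, 15.5 to 23.0) in KO and 0 in WT, where 3 UMIs would be 2.72 CPM. The KO level was 6.98 times that limit, and the exact interval of the ratio began at 5.58. In early prophase-like cells it had 57 UMIs (23.5 CPM) in KO and 0 in WT, 4.02 times the level of 3 UMIs, and the interval of the ratio began at 3.16. These KO levels were 10.4% and 12.9% of the gene's level over all kept KO cells, beside the free RNA quotients given above. Over all barcodes Cxcl1 had 181 CPM in KO and 1.24 in WT, so the libraries differed in Cxcl1 RNA as a whole. The part of free RNA in the germ-like difference was not tested. Across the settings tried, the log2 ratio of Cxcl1 in germ-like over all other KO cells ran between -6.75 and -3.52. The other 7 genes had 1 to 19 UMIs in each of these KO classes, and their KO over WT intervals all held 1. Counts this low limit what those intervals can show. In spermatogonia-like cells Il1b had 0.717 CPM in KO and 0.906 in WT. In WT germ-like cells Il1b was the commonest of the 8, with 90 UMIs in 86 of 4771 cells. Of these UMIs, 41 were in pachytene and diplotene-like, 38 in round spermatid-like and 10 in elongating spermatid-like cells. KO germ-like cells, all of earlier stages, had 0.750 CPM of Il1b, while WT pachytene and diplotene-like cells had 3.11 and WT round spermatid-like cells 4.46. Il1bos, annotated on the opposite strand over Il1b, had 57 UMIs in the same pachytene and diplotene-like cells. Cxcl10 had 15 UMIs there, and Art3, annotated over Cxcl10 on the opposite strand, had 3910 UMIs (296 CPM), its highest level in a class of at least 50 cells. The use of strand in counting is not given in the sources used here, so reads of these pairs cannot be told apart. The same limit holds for Ccl2, over which Gm17268 is annotated on the opposite strand. Cxcl2 shares stretches of 50 bases, the read length in the labels, with Cxcl3, which had no UMI in any named class of either library, and no other pair among these 9 transcripts shares one.

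The other genes of the pathway were counted from 7 lists, and 18.7% of all genes counted were at least 2-fold higher in myeloid-like cells. Of the other chemokines, 16 of 28 had at least 20 UMIs in kept KO cells, and 11 were at least 2-fold higher and 3 at least 2-fold lower in myeloid-like cells than in all others, with a median log2 ratio of 5.68 beside -0.36 over all genes. Pf4, a platelet chemokine that resident macrophages also make, had 1527 CPM there, and the monocyte attractants Ccl7, Ccl12 and Ccl8 had 315, 277 and 276. Ccl7 and Ccl8 were higher in the MHC class II low cluster, with 181 and 4.42 CPM in the high and 349 and 345 in the low cluster, while Ccl12 had 477 in the high and 225 in the low one. Cxcl12, which retains stem and immune cells in niches, had 363 CPM in endothelial-like, 253 in stromal-like and 219 in Leydig-like cells, against 6.29 in myeloid-like cells. Cx3cl1 had 39.1 CPM in Leydig-like and 38.3 in stromal-like cells, and Cxcl16 171 in myeloid-like cells.

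Of the other cytokines, 10 of 16 counted were at least 2-fold higher and 3 lower in myeloid-like cells, with a median log2 ratio of 2.28. Mif, an inhibitor of macrophage migration, was high in every class, with 202 CPM in myeloid-like and 460 in germ-like cells. Tnfsf12 had 99.7, Osm 57.5 and Tgfb1 54.8 CPM in myeloid-like cells. Csf1, the growth factor of macrophages, was the reverse, with 255 CPM in stromal-like and 160 in Leydig-like cells, against 9.88 in myeloid-like cells. Among receptors and decoys, 9 of 15 were at least 2-fold higher and 2 lower in myeloid-like cells, with a median log2 ratio of 3.15. Cx3cr1, the receptor of CX3CL1, had 1268 CPM there and Ccrl2 320. Tnfrsf1a, the widely made TNF receptor, had 134 CPM in Sertoli-like, 122 in stromal-like, 118 in Leydig-like, 103 in myeloid-like and 11.1 in germ-like cells. Il1r1, the signalling IL-1 receptor, had 83.9 CPM in Leydig-like, 46.6 in stromal-like and 29.0 in Sertoli-like cells, against 5.39 in myeloid-like and 3.37 in germ-like cells. Ackr3 was highest in endothelial-like cells, with 99.9 CPM.

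Receptors of the 8 ligands were also looked up by name after other values had been seen. Cxcr2, the receptor of CXCL1 and CXCL2, had 25 UMIs in the whole KO library and 14 in the WT one, with 0 in KO myeloid-like, 10 in KO germ-like and 8 in KO Sertoli-like cells. Ccr2, the receptor of CCL2, had 32 and 4, of which 11 lay in the KO MHC class II high cluster and 2 in the low one. Ccr1, a receptor of CCL3, had 63 of its 74 KO UMIs in myeloid-like cells, and 61 of these in the MHC class II low cluster. Cxcr3 had 15 UMIs in KO and 0 in WT. The low counts limit what can be said of these receptors at this depth.

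NF-kB pathway genes and targets were at least 2-fold higher in myeloid-like cells for 20 of 32 counted and lower for 3, with a median log2 ratio of 1.35. Nfkbia, which holds NF-kB in the cytoplasm, had 916 CPM, Nfkbiz 702, the lipopolysaccharide co-receptor Cd14 311 and Marcksl1 254. Marcksl1 was not highest there, with 678 CPM in Sertoli-like and 288 in germ-like cells. In the MHC class II high and low clusters Nfkbia had 1648 and 729 CPM and Cd14 919 and 156. In Leydig-like cells 4 of 32 were higher, beside 10.4% of all genes, and 6 lower. Vcam1, an adhesion molecule, had 1386 CPM there and 720 in stromal-like cells, against 76.3 in myeloid-like cells. All 7 counted inflammasome genes, which serve the cleavage of IL-1 beta, were at least 2-fold higher in myeloid-like cells. Nlrp3, its sensor, had 424 CPM in the MHC class II high and 123 in the low cluster, while Pycard had 124 and 169, Aim2 75.1 and 108 and Casp4 17.7 and 78.9. Only Nlrp3 of these 4 was thus higher in the cluster with Il1b. Gsdmd had 30.5 CPM in myeloid-like cells.

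Interferon targets were at least 2-fold higher for 15 of 22 in myeloid-like cells (median log2 ratio 1.88), 13 of 22 in stromal-like (1.49), 4 of 22 in Leydig-like (-0.14), 3 of 22 in Sertoli-like (-1.39) and 0 of 22 in germ-like cells (-2.41). Over all genes the shares were 18.7%, 15.8%, 10.4%, 17.8% and 28.6% in the same order of classes. Irf1, an interferon-induced transcription factor, had 333 CPM in stromal-like, 231 in Leydig-like and 129 in myeloid-like cells, and Ifitm3 569, 68.9 and 107. Bst2 had 178 and Iigp1 148 CPM in myeloid-like cells. Immediate early genes were at least 2-fold higher for 21 of 24 in stromal-like, 20 in myeloid-like, 14 in Leydig-like, 0 in Sertoli-like and 2 in germ-like cells, beside the shares of all genes given for each class. Fos had 6540 CPM in stromal-like, 3240 in myeloid-like and 2367 in Leydig-like cells, Jun 7194, 3971 and 2653, Junb 4918, 2651 and 1634, and Egr1 5583, 2101 and 1696. Over all barcodes, 23 of 24 were at least 2-fold higher in KO than in WT, with a median log2 ratio of 5.64, and their part in the levels of the 8 genes was not tested. Between the libraries 12 of 18 other chemokines, 16 of 19 other cytokines, 15 of 17 receptors, 26 of 33 NF-kB genes, 6 of 9 inflammasome genes and 22 of 24 interferon targets were also at least 2-fold higher in KO, beside 43.3% of all genes. In the same order of lists 2, 2, 1, 4, 1 and 1 genes were at least 2-fold lower, beside 34.1% of all genes, and 0 immediate early genes.

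The genes most like each of the 8 over the 15 KO clusters of at least 50 cells were mostly leukocyte genes for the 6 myeloid ones. These correlations describe clusters of 1 library that share depth and free RNA. The highest for Tnf were with Cd33 (Pearson r 0.97) and Lilrb4a (0.96), for Ccl3 with Slc15a3 (0.97), for Ccl2 with Plek (0.97), for Ccl4 with Ptger4 (0.97), for Cxcl2 with Cd68 (0.95) and for Il1b with H2-Aa (0.94). Cxcl1 was most like Chaserr (0.93) and Bphl (0.92), and Cxcl10 most like H2-T23 (0.89). Over the 441 KO myeloid-like cells, Il1b was closest to H2-Aa (0.65), H2-Ab1 (0.64) and H2-Eb1 (0.64), and Ccl4 to Cd74 (0.58). Those MHC class II genes also mark the high cluster, so these values hold the difference between the clusters already given. Ccl2 was closest to its neighbour Ccl7 (0.50) and to Ier3 (0.46), Ccl3 to Ccl4 (0.53) and Zfp36 (0.44), and Cxcl2 to Ccrl2 (0.41). Tnf was closest to Egr1 (0.28), Ppp1r15a (0.28) and Junb (0.26), and Cxcl10 to Ccl4 (0.28). Of these, Egr1 and Junb are on the list of immediate early genes.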

How the data were processed

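Whole testes of 1 RAD21L KO and 1 WT mouse were measured by droplet single-cell RNA sequencing. The authors deposited UMI counts per gene and barcode. Cell Ranger 6.1.2, Seurat 4.3 and the build GRCm39 are named in the submitters' processing notes. Use of strand is not given in the sources used here.

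From the counts, cells with at least 500 genes and at most 20% mitochondrial UMIs were kept. Scrublet (in Scanpy 1.11.5) marked 126 of 6381 KO cells (1.97%), which were removed. It marked 1 of 5400 WT cells (0.0185%) and had not worked there, so none were removed, and doublets were treated unequally. The median UMI count per kept cell was 3429 in KO and 2230.5 in WT. Both libraries were clustered together without integration (2000 variable genes per library, 30 components, 15 neighbours, Leiden resolution 1, seed 1; leidenalg 0.10.2, Python 3.11.15), leaving out the 8 genes, the listed genes and mitochondrial genes. Clusters were named from at least 3 markers. Clusters with a median UMI count under 1/3 of their library's, or whose leading genes and markers disagreed, stayed unnamed, a rule set after the clusters were seen. Unnamed cells were 1568 in KO and 566 in WT.

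UMIs were summed per class and scaled to CPM computed here. Intervals are exact Poisson for CPM, exact conditional binomial for ratios and Clopper-Pearson for shares (SciPy 1.17.1). For 2-fold calls and log2 ratios, counts under 3 were set to 3, and genes with at least 20 UMIs were compared. Ratios given with intervals used the counts as they were. In simulated libraries, 200 of 200 genes with a 4-fold change were called in the KO over WT comparison (22922 genes). Among unchanged genes expected at 20 or more UMIs in each library, 26 of 20239 were called. The simulation held counting error only, without spread between mice or cells, so it gives no error rate for the real comparison. Named list genes were the up to 4 with the highest CPM in KO myeloid-like cells and the up to 3 highest in another class, from which examples were taken, and the 3 most correlated genes of each of the 8. The members and lists were chosen with earlier results of these data known. The receptors were looked up after values were seen. Longer forms of both promoter motifs and a looser NF-kB form were also searched, and are not reported. The lists' immediate early genes include Fos, Jun, Junb and Egr1.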

Additional observations from a re-analysis of the deposited data

Results flagged for a closer look

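The 8 genes also had UMIs in KO barcodes that entered no class. Their summed level was 307 CPM (277 to 338) in the 863 barcodes removed from the RAD21L KO library, where Cxcl1 held 212 of 400 UMIs. The 15 barcodes removed from the WT library had 0 of 16543 UMIs from the 8 genes, which allows up to 223 CPM. In the 1568 unnamed kept KO cells the sum was 175 CPM (155 to 195), with 199 of 305 UMIs from Cxcl1. In the 566 unnamed kept WT cells it was 14.2 CPM (7.08 to 25.4), from 11 UMIs.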

How the results depend on the processing

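Counts of members at least 2-fold higher were followed for each class over other KO cells and for KO over WT. In all 76 combinations of result and setting they kept the same value or stayed within 1.5 times of it. Counts of members lower, and the comparison of the myeloid-like clusters, were not followed under other settings. The settings varied cell filters, Leiden resolution, seed, genes used in clustering and doublet removal. Others used a gate on single cells in place of clusters, or varied free RNA, scaling and low-count limits. For single members, 582 values stayed within their main interval, 66 moved outside it and 0 ratios changed sign. Besides ratios, these values include shares of cells thinned to 2000 rather than 1000 UMIs, which have no sign. Cxcl1 was at least 2-fold higher in myeloid-like cells under 0 of 14 settings, with log2 ratios of -1.23 to -0.93. Naming the shallow clusters and leaving out the cell with the most UMIs were settings chosen after seeing the data. Without that cell the stromal-like log2 ratio over other cells was -2.83 for Ccl2 and -2.90 for Ccl4, against -1.25 and -1.38 with it. No paired analysis was possible because there was 1 library per genotype. Genes with few UMIs in a class, and all WT somatic classes, are limited by depth and cell number.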
